A study of Mus musculus with 6 samples.

Results

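The genes followed here encode the machinery that carries Ca2+ across the 2 mitochondrial membranes: Mcu, Micu2, Micu3 and Smdt1 of the uniporter complex, the exchanger genes Slc8b1 and Letm1, and the voltage-dependent anion channel (VDAC) genes Vdac1, Vdac2 and Vdac3. They were chosen by gene symbol, as annotated by Ensembl 95 on the mouse assembly GRCm38. All 9 were found among the 54838 genes of the count table, and all 9 were among the 19087 genes that passed the filter on low counts. RNAseq was carried out on hippocampi of 3 wild-type females and 3 females labelled FVB/NJ-Tg(Orai1)Ibd, called Tg(ORAI1)Ibd or transgenic here, with 1 library per mouse. The mice were aged 7 months, and no other allele, drug or treatment is named for either group, nor a strain for the wild-type mice. The transgene is a human ORAI1 coding sequence in the Thy1.2 cassette, which drives expression in neurons, so that other cells of the tissue carry the transgene without being its target. The libraries hold RNA of whole hippocampus, in which fewer cells of a type and less RNA per cell cannot be told apart.

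Mitochondria take up Ca2+ along the voltage across their inner membrane. VDAC proteins are the pores of the outer membrane, through which Ca2+ and metabolites reach the space between the membranes. In the inner membrane, MCU forms the pore of the uniporter, SMDT1 (also called EMRE) is the small subunit that ties the pore to its regulators, and MICU proteins are EF-hand gatekeepers that keep the pore closed at low cytosolic Ca2+. MICU3 is known chiefly from nervous tissue. SLC8B1 (also called NCLX) returns Ca2+ to the cytosol in exchange for Na+, and LETM1 is an inner membrane protein described as a cation/proton exchanger. In neurons this cycle buffers Ca2+ that enters through plasma membrane channels such as ORAI1, the pore of store-operated Ca2+ entry.

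The 3 Vdac genes and the Micu genes are families of related sequence, and reads can be divided among their members only where the sequences differ. Reads of 76 bases were made. The following stretches are the 76 bases of coding sequence in which the 3 Vdac genes were most alike, in the 5′ to 3′ direction of the transcript, with bases that all 3 share in capitals.
Vdac1: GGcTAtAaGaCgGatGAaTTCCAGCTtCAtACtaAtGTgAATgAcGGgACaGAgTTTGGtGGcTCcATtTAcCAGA
Vdac2: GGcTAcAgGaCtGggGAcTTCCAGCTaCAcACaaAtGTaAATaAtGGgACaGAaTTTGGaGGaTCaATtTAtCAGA
Vdac3: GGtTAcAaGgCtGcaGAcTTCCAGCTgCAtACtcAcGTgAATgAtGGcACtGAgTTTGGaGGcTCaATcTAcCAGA
Of these 76 bases 52 were identical in all 3 genes and 24 were not. The Vdac1 stretch joins exons 5 and 6 of 8 at chr11:52384040-52385620 on the plus strand, that of Vdac2 joins exons 7 and 8 of 10 at chr14:21838581-21840456 on the plus strand, and that of Vdac3 joins exons 6 and 7 of 9 at chr8:22579105-22580377 on the minus strand (GRCm38, with the intron included in each span). Over the whole coding sequence, in the best alignment without gaps, Vdac1 and Vdac2 were identical at 68.5% of bases, Vdac2 and Vdac3 at 64.8%, and Vdac1 and Vdac3 at 60.0%. The most similar stretch of the Micu pair is shown in the same way, with the bases shared by both in capitals.
Micu2: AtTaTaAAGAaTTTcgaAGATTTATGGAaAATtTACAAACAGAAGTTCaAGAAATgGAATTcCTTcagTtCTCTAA
Micu3: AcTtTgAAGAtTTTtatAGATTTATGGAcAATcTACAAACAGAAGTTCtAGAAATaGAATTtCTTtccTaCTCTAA
Here 60 bases were shared and 16 differed. The Micu2 stretch lies in exons 8 and 9 of 12 at chr14:57924055-57927215 on the minus strand, and the Micu3 stretch in exons 10 and 11 of 15 at chr8:40375619-40376152 on the plus strand. The longest run of identical bases shared by coding transcripts was 17 between Vdac1 and Vdac2, 15 between Vdac2 and Vdac3 and 15 between Micu2 and Micu3, far shorter than a read.

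Longer stretches were shared with pseudogenes. Of the 1419 different 76-base stretches in Vdac3 coding transcripts, 564 (39.7%) also occur in Vdac3-ps1, a pseudogene at chr13:18030741-18031593, and 141 (9.94%) in the processed pseudogene Gm7591. Vdac3-ps1 was counted with 377, 259 and 278 fragments in the wild-type and 353, 295 and 268 in the transgenic libraries, against 4158 to 5876 fragments for Vdac3. For Vdac2, 69 of 2694 stretches (2.56%) occur in Gm7832, which had 48 to 113 fragments. Fragments that fit both a gene and its pseudogene could have been counted for either, or for neither. Fragments counted for neither would make the levels of Vdac3 and Vdac2 given below too low, and adding pseudogene counts would not restore them. How many were left out was not tested. With the pseudogene counts added to the genes the log2 fold changes were 0.065 for Vdac3 and -0.049 for Vdac2, near the values of 0.060 and -0.048 without them.

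Between 37414241 and 52497799 fragments were counted on genes per library. The unit of normalized levels is CPM, that is counts divided by the TMM-scaled total of the library. Orai1 counts, which can hold reads of the human transgene only as far as they align to the mouse gene, were 7.47 ± 0.528 CPM over the wild-type libraries and 320.2 ± 9.54 CPM over the transgenic ones (mean ± SD, n = 3), and Thy1 counts were 621 to 675 and 3572 to 4369 CPM, so that both separated the 6 libraries as labelled. Neuronal markers of the hippocampus were present in every library, with a summed level over 10 genes of 5558 to 5770 CPM for wild-type mice and 5777 to 6483 CPM for transgenic mice, and 1 of the 10 (Slc17a7) rose. A list of 12 epithelial markers of the choroid plexus, which borders the hippocampus in the ventricle, moved with the genotype in these 6 libraries. Kcne2, Folr1, Clic6 and Kl of this list were among the genes that the study had picked from the same libraries for PCR. All 12 fell in transgenic mice, from a summed 3793 to 5936 CPM to 546 to 852 CPM, and none was at 0 in any group. Of 4 markers of endothelium 1 (Cldn5) rose, while of 5 markers each of astrocytes, oligodendrocytes and microglia 0 had an adjusted p under 0.05 by edgeR, and at an unadjusted p 1 microglia marker did (Slc17a7 and Cldn5 are named because of their values). Of all genes tested, 7.10% had an adjusted and 27.8% an unadjusted p under 0.05. The part of the choroid plexus in the results below was not tested. Genotypes were compared with the quasi-likelihood test of edgeR, and p-values were adjusted over all genes by the Benjamini-Hochberg method. The adjusted p was under 0.05 in 1355 genes, and when any 1 of wild-type mice 1 and 2 or transgenic mice 2 and 3 was left out this count was 74 to 169.

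Levels between genes were compared per length, as FPKM, the counts relative to the library total and to gene length in kilobases. In wild-type hippocampi and with the summed length of all exons of a gene, Vdac1 stood highest with 159 ± 3.51 FPKM. Smdt1 (36.4 ± 2.04 FPKM) and Vdac2 (34.6 ± 0.937 FPKM) followed, and the ranges of these neighbours overlapped. Below them lay Vdac3 with 20.6 ± 0.210 FPKM and Micu3 with 14.8 ± 0.748 FPKM. Letm1 (8.98 ± 0.238 FPKM) and Micu2 (8.72 ± 0.533 FPKM) overlapped in their ranges. The pore gene Mcu had 5.76 ± 0.454 FPKM, and the exchanger gene Slc8b1, the lowest of the 9, had 2.05 ± 0.382 FPKM. These values depend on which length is taken, since several of the genes have long annotated exons outside their coding transcripts. With the length of the longest protein-coding transcript, 1423 bases instead of 5420 for Vdac3, the level of Vdac3 became 78.4 ± 0.801 FPKM, next to Vdac2 at 84.5 ± 2.29 and Smdt1 at 76.4 ± 4.29 FPKM. By the same length Mcu, with 13.9 ± 1.10 FPKM, stood above Micu2, with 11.6 ± 0.706 FPKM, so that the order of the pore and this gatekeeper turned around. Vdac1 at the top and Slc8b1 at the bottom kept their places by both lengths.

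**Figure D1:**
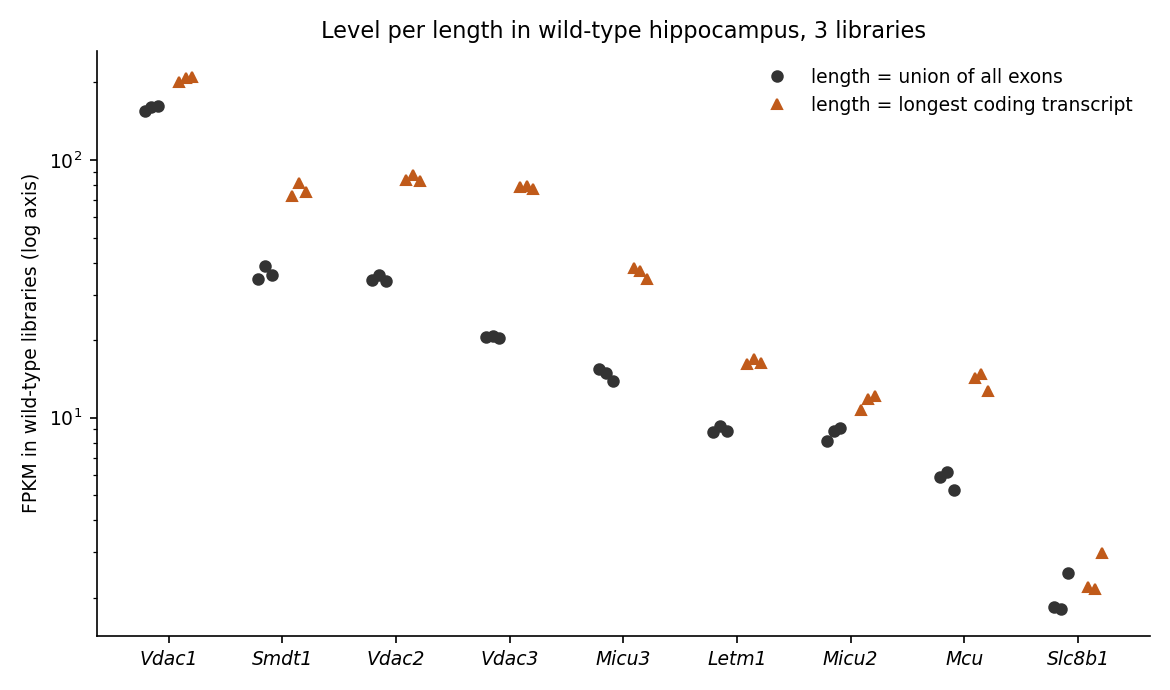
Level of the 9 genes in the 3 wild-type libraries, as FPKM on a log axis, with each point 1 library. Circles use the summed length of all exons and triangles the longest protein-coding transcript. Vdac1 lies highest (159 and 206 FPKM on average by the 2 lengths) and Slc8b1 lowest (2.05 and 2.45 FPKM), while Mcu and Micu2 change order between the lengths.

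The comparison of the genotypes asked whether neuronal ORAI1 overexpression went together with a different level of these transcripts. By the edgeR quasi-likelihood test the adjusted p was under 0.05 in 0 of the 9, beside 7.10% of all genes tested. At an unadjusted p under 0.05, 2 of the 9 passed (Smdt1, higher, and Micu3, lower), against 27.8% of all genes. With DESeq2's Wald test and with limma-voom the counts were also 0 with an adjusted p and 2 with an unadjusted p. Over all genes the shares were 13.8% and 23.7% by DESeq2, among genes it gave a p, and 6.61% and 28.1% by limma-voom. In Smdt1 and Vdac3 the 3 transgenic libraries lay on the same side of all 3 wild-type libraries, as they did in 34.9% of all genes. Log2 fold changes of the 9 lay between -0.18 and 0.26, and their median was 0.055, beside a median of -0.010 over all genes. The summed level of the 9 genes was 988 to 1019 CPM for wild-type mice and 1009 to 1027 CPM for transgenic mice, and these ranges overlapped. No member had an adjusted p under 0.05 under any of the 21 other settings of scaling, filter, test, offsets or left-out mouse.

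**Figure D2:**
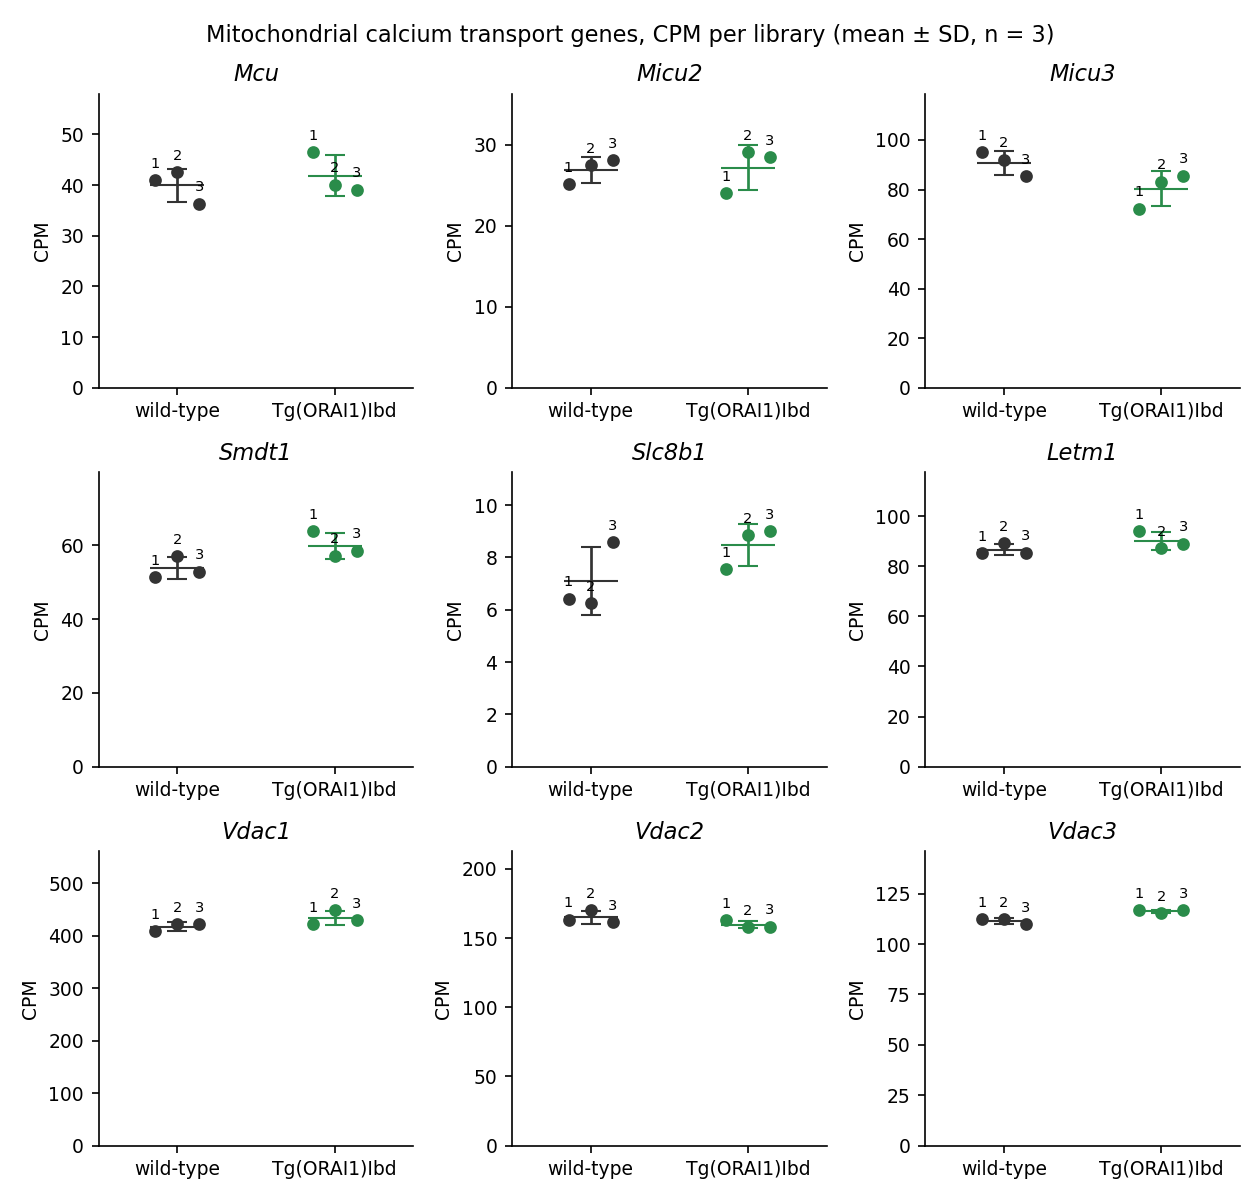
CPM of each gene in each library (points, numbered by mouse), with the mean and SD of the 3 libraries per genotype. The vertical axes start at 0. The genotypes overlap in 7 of the 9 genes and lie apart without overlap in Smdt1 (51.4 to 57.1 against 57.2 to 63.8 CPM) and Vdac3 (110 to 112 against 115 to 117 CPM).

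Mcu (ENSMUSG00000009647), the pore gene, lies at chr10:59446984-59616692 on the minus strand and has 5 transcripts. Its level was 41.0, 42.6 and 36.4 CPM in wild-type mice 1, 2 and 3, and 46.5, 40.1 and 39.1 CPM in transgenic mice 1, 2 and 3. Transgenic mouse 1 was the highest and wild-type mouse 3 the lowest of the 6, while transgenic mice 2 and 3 lay below wild-type mice 1 and 2, so that the groups overlapped. The log2 fold change was 0.068 (standard error 0.086, edgeR adjusted p = 0.658), with a 95% interval from -8.85% to 20.5%. Without transgenic mouse 1 the log2 fold change was -0.016.

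Smdt1 (ENSMUSG00000022452), the gene of the small subunit that holds pore and gatekeepers together, lies at chr15:82338959-82349091 on the plus strand. It had 51.4, 57.1 and 52.9 CPM in the wild-type mice against 63.8, 57.2 and 58.6 CPM in the transgenic mice. The groups did not overlap, but wild-type mouse 2 and transgenic mouse 2 nearly touched. The mean was 11.3% higher in transgenic mice, with a 95% interval of 0.666% to 23.1% (log2 fold change 0.15, standard error 0.062, edgeR unadjusted p = 0.0396 and adjusted p = 0.157). Of the 882 76-base stretches of Smdt1, 52 also occur in the overlapping gene Pheta2, which had only 9 to 16 fragments in a library.

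Of the gatekeeper genes, Micu2 (ENSMUSG00000021973, chr14:57916261-57999262, minus strand) had 25.1, 27.4 and 28.1 CPM in the wild-type mice against 23.99, 29.1 and 28.4 CPM in the transgenic mice. The transgenic libraries held both the lowest and the highest value, and the log2 fold change was 0.015 (standard error 0.086, edgeR adjusted p = 0.932). Its 95% interval ran from -12.1% to 16.1%.

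Micu3 (ENSMUSG00000039478, chr8:40307458-40386308, plus strand) had 95.01, 91.9 and 85.4 CPM in the wild-type mice against 72.3, 83.1 and 85.5 CPM in the transgenic mice. Transgenic mouse 1 was far below the rest, whereas transgenic mouse 3 and wild-type mouse 3 were level. The mean was 11.6% lower in transgenic mice, with a 95% interval from -21.5% to -0.498% (log2 fold change -0.18, standard error 0.073, edgeR unadjusted p = 0.0431 and adjusted p = 0.165). Without transgenic mouse 1 the log2 fold change was -0.11 (edgeR adjusted p = 0.229). Of its 3865 76-base stretches 129 occur in the overlapping gene Fgf20, annotated on the opposite strand, which had 24 to 33 fragments against 3171 to 4973 for Micu3.

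The exchanger gene Slc8b1 (ENSMUSG00000032754, chr5:120511168-120534024, plus strand) was the least covered of the 9, with 264 to 352 fragments in a library. It had 6.42, 6.26 and 8.59 CPM in the wild-type mice against 7.55, 8.86 and 9.0 CPM in the transgenic mice. Wild-type mouse 3 lay among the transgenic libraries, and the other 2 wild-type mice lay below all of them. The log2 fold change of 0.26 was the largest among the 9 and the least precise (standard error 0.14, edgeR adjusted p = 0.289), with a 95% interval from -5.34% to 51.1%. Without wild-type mouse 3 it was 0.42 (edgeR adjusted p = 0.0816).

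Letm1 (ENSMUSG00000005299, chr5:33739673-33782817, minus strand) had 85.3, 89.2 and 85.4 CPM in the wild-type mice against 93.9, 87.2 and 88.9 CPM in the transgenic mice. Wild-type mouse 2 lay inside the transgenic range. The log2 fold change was 0.055 (standard error 0.047, edgeR adjusted p = 0.483), and the 95% interval ran from -3.61% to 12.03%. It was 0.16 with gene length offsets (edgeR adjusted p = 0.126) and 0.016 with GC offsets. With 1 mouse left out it ran from 0.022 (without transgenic mouse 1) to 0.093 (without wild-type mouse 2).

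The outer membrane channels were the most precisely measured. Vdac1 (ENSMUSG00000020402, chr11:52360860-52389397, plus strand) had 408, 422 and 422 CPM in the wild-type mice against 422, 448 and 429.7 CPM in the transgenic mice. Transgenic mouse 1 was level with wild-type mice 2 and 3, and the log2 fold change was 0.054 (standard error 0.046, edgeR adjusted p = 0.487). Its 95% interval ran from -3.58% to 11.8%. It was 0.029 with gene length offsets and 0.018 with GC and gene length offsets.

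Vdac2 (ENSMUSG00000021771, chr14:21825238-21845879, plus strand), which the study picked from these same libraries for PCR, had 163, 170.1 and 162 CPM in the wild-type mice against 163, 158 and 158 CPM in the transgenic mice. Transgenic mouse 1 again overlapped the wild-type libraries. The log2 fold change was -0.048 (standard error 0.042, edgeR adjusted p = 0.502), with a 95% interval from -9.53% to 3.48%. Without wild-type mouse 2 it was -0.0095, and without transgenic mouse 3 it was -0.023.

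Vdac3 (ENSMUSG00000008892, chr8:22577075-22593813, minus strand) had 112, 112 and 110 CPM in the wild-type mice against 117, 115 and 117 CPM in the transgenic mice. The groups did not overlap, and both had a small spread. The mean was 4.28% higher in transgenic mice, with a 95% interval from -1.91% to 10.9% (log2 fold change 0.060, standard error 0.038, edgeR adjusted p = 0.341).

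**Figure D3:**
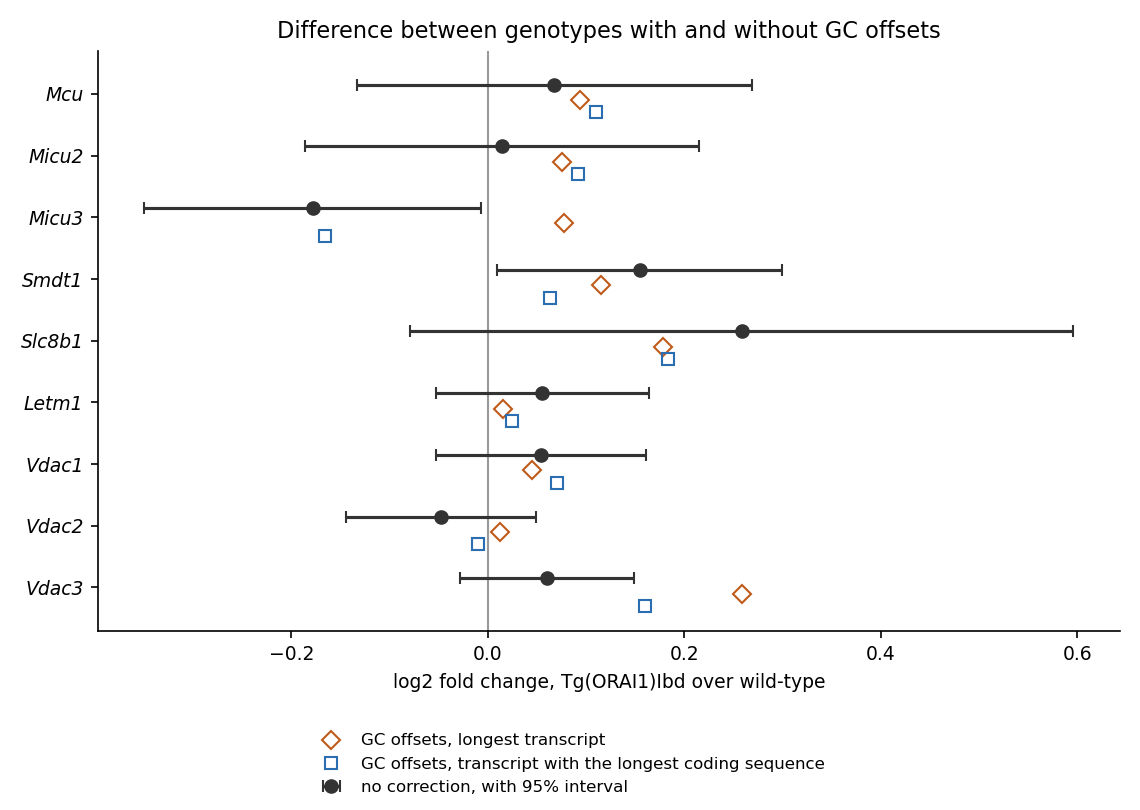
Log2 fold change of each gene between genotypes, with the 95% interval of the edgeR fit without correction (filled circles) and the value after GC offsets taken from the longest transcript of a gene (diamonds) or from the transcript with the longest coding sequence (squares). All 9 genes lie between -0.18 and 0.26 without correction, and the diamonds of Micu3 and Vdac2 lie on the other side of 0.

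The GC content of a transcript moved with the fold change across all genes, and this touches several of the 9. In the lowest GC decile of all tested genes, from 28.3% to 41.1%, the median log2 fold change was -0.18, and in the highest, from 57.8% to 84.2%, it was 0.13. Micu3, whose longest annotated transcript has a GC content of 35.7%, lies in the lowest decile, and its log2 fold change of -0.18 was close to the median there. Vdac3 lies in the same decile by its longest transcript (39.1%), with a log2 fold change of 0.060. By its longest coding transcript, at 45.7%, Vdac3 lies within the range of decile 3, where the median was -0.083. Slc8b1 (56.9%) and Smdt1 (53.1%) lie in the 9th and 7th deciles, where the medians were 0.10 and 0.055. By its longest coding transcript, at 58.3%, Smdt1 lies within the range of the highest decile.

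Correcting each library for this trend gave Micu3 a log2 fold change of 0.078 (edgeR adjusted p = 0.417) and Vdac3 a log2 fold change of 0.26 (adjusted p = 0.0846). The result for Micu3 turned on the transcript used. The longest Micu3 transcript, 2488 bases, is annotated as incomplete at its 5′ end, while the transcript with the longest coding sequence has 2219 bases and a GC content of 50.6%. With GC offsets from the transcript with the longest coding sequence the log2 fold change of Micu3 was -0.17 (edgeR adjusted p = 0.236) and that of Vdac3 was 0.16 (adjusted p = 0.109). Smdt1 came to 0.063 and Slc8b1 to 0.18 in that fit.

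**Figure D4:**
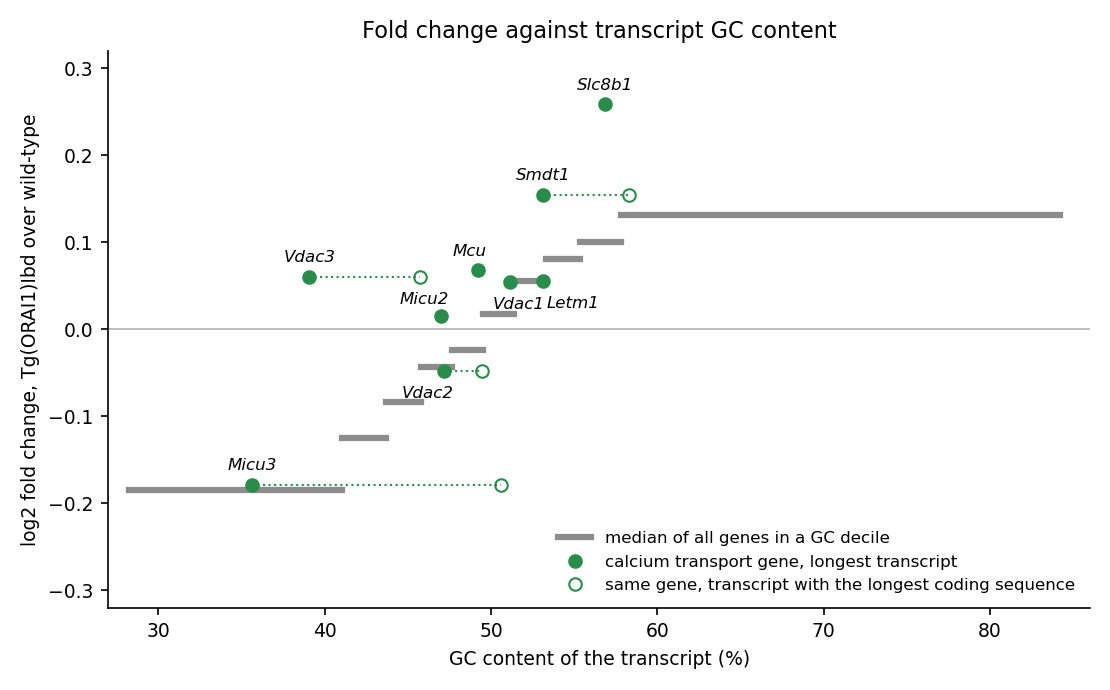
Log2 fold change between genotypes against the GC content of the transcript in percent. Grey bars span each GC decile of all tested genes at its median, from -0.18 to 0.13. Filled circles place the 9 genes by their longest transcript, and open circles place those whose transcript with the longest coding sequence differs by more than 1 percentage point, as Micu3 does (35.7% and 50.6%).

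Ratios between the genes within a library do not depend on how libraries are scaled, and 8 of them were compared between genotypes with an exact two-sided permutation test. With 3 mice against 3 this test cannot give a p below 0.10. The log2 ratio of Micu3 to Micu2 (FPKM, all exons) was 0.92, 0.75 and 0.61 in wild-type and 0.59, 0.52 and 0.59 in transgenic mice. The groups did not overlap, with wild-type mouse 3 next to transgenic mouse 1, and the difference of -0.19 had an exact p = 0.10, or 0.533 adjusted by the Benjamini-Hochberg method over the 8 ratios. Without wild-type mouse 1 the difference was -0.11. These ratios are not corrected for GC content, and with GC offsets from the longest transcript (35.7% GC for Micu3 and 47.0% for Micu2) the log2 fold changes of Micu3 and Micu2 were 0.078 and 0.076, while with offsets from the longest coding sequence they were -0.17 and 0.092. The log2 ratio of Micu3 to Mcu was 1.36 ± 0.066 in wild-type and 1.11 ± 0.26 in transgenic mice, where transgenic mouse 1 stood alone at 0.81 (exact permutation p = 0.20, adjusted p = 0.533), and without it the difference was -0.095 instead of -0.25. The log2 ratio of Smdt1 to Mcu was 2.66 ± 0.11 in wild-type and 2.75 ± 0.063 in transgenic mice (exact permutation p = 0.30, adjusted p = 0.60). Its difference of 0.087 was 0.036 without wild-type mouse 1 and 0.14 without wild-type mouse 3. For Slc8b1 to Mcu the log2 ratio was -1.51 ± 0.37 in wild-type and -1.30 ± 0.28 in transgenic mice, and the groups overlapped. This difference was 0.20 (exact permutation p = 0.50, adjusted p = 0.80).

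Among the channels, the log2 ratio of Vdac2 to Vdac1 was -2.20 ± 0.040 in wild-type and -2.30 ± 0.065 in transgenic mice (exact permutation p = 0.20, adjusted p = 0.533). The ratio of Vdac3 to Vdac1 was -2.95 ± 0.040 and -2.95 ± 0.055 (exact permutation p = 0.90, adjusted p = 1). Of the summed Vdac FPKM, Vdac1 made up 74.3% ± 0.492 in wild-type and 75.1% ± 0.787 in transgenic libraries. By the longest coding transcript its share was 55.9% ± 0.632 and 56.7% ± 1.01.

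**Figure D5:**
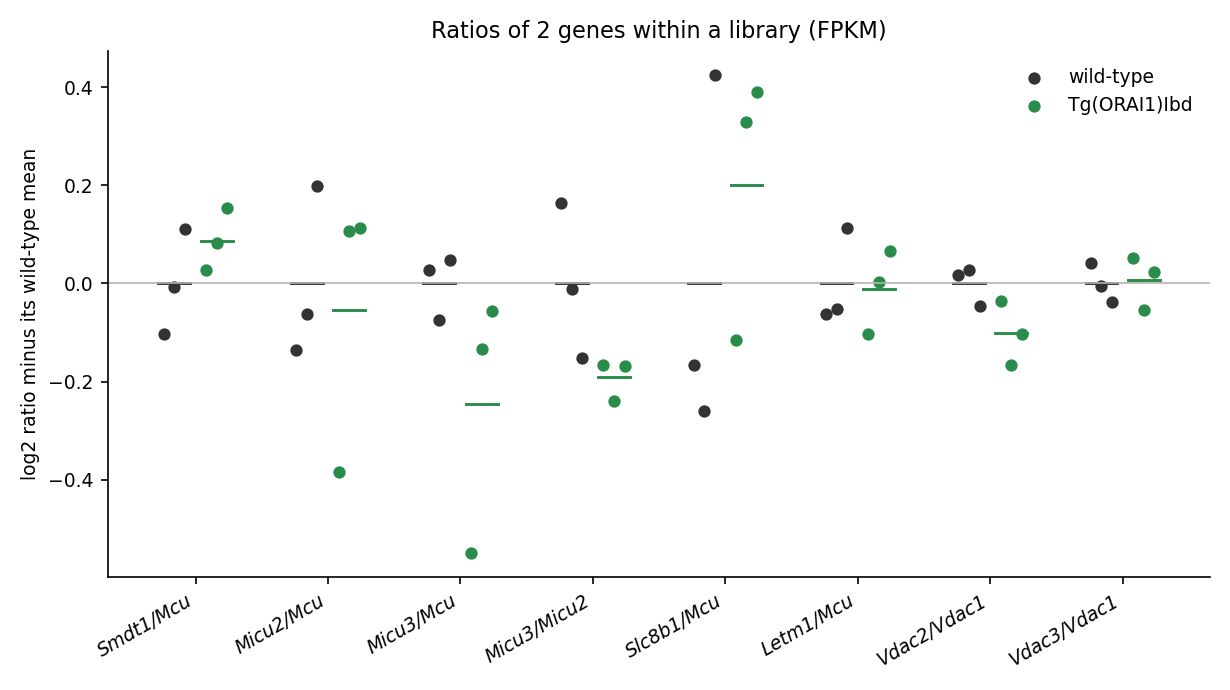
Log2 ratio of 2 genes within a library (FPKM, all exons), drawn as the difference from the wild-type mean of that ratio, with short lines at the group means. Only the ratio of Micu3 to Micu2 has groups that do not overlap, and transgenic mouse 1 is the low point of the Micu2 to Mcu and Micu3 to Mcu ratios.

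The other genes of mitochondrial Ca2+ handling were taken from a list of 33 genes arranged by function, all of which passed the filter. By the edgeR quasi-likelihood test the adjusted p was under 0.05 in 0 of the 33 (7.10% of all genes tested) and the unadjusted p in 6 (27.8% of all genes), of which 1 was higher and 5 were lower. DESeq2's Wald test gave 3 and 5 genes by the same thresholds (13.8% and 23.7% of all genes), and limma-voom 1 and 5 (6.61% and 28.1%). In 10 of the 33 the groups did not overlap, as in 34.9% of all genes. By function, the genes at an unadjusted p under 0.05 were 3 of 7 exchange and carrier genes (1 higher, 2 lower), 1 of 4 genes of uniporter assembly and proteolysis (lower), 1 of 5 matrix enzymes (lower), 1 of 9 genes of contacts with the endoplasmic reticulum and Ca2+-sensing transport (lower), 0 of 6 partners of VDAC and 0 of 2 further uniporter genes. The median log2 fold change of the exchange and carrier genes was -0.13, and those of the other 5 groups lay between -0.031 and 0.12. Over all 33, log2 fold changes lay between -0.49 and 0.31, and the median was -0.017.

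Of these further uniporter genes, Mcur1, a scaffold regulator, had 33.2 ± 0.393 CPM in the wild-type mice against 31.4 ± 1.74 CPM in the transgenic mice (log2 fold change -0.082, edgeR adjusted p = 0.381). Mcub, a paralog of the pore that lowers its conductance, had 2.14, 2.89 and 6.21 CPM in the wild-type mice against 3.19, 5.45 and 5.23 CPM in the transgenic mice. Its libraries spread widely in both genotypes (log2 fold change 0.31, standard error 0.39, edgeR adjusted p = 0.652). Without wild-type mouse 1 the log2 fold change of Mcub was 0.024, and without wild-type mouse 3 it was 0.88 (edgeR adjusted p = 0.102).

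The genes called by another tool or setting were singled out after their values were seen. Slc25a13, an aspartate/glutamate carrier with a Ca2+-binding domain, had 4.17 ± 0.136 CPM in the wild-type mice against 2.97 ± 0.273 CPM in the transgenic mice (log2 fold change -0.49, edgeR adjusted p = 0.0535, limma-voom adjusted p = 0.0483). Slc25a23, an ATP-Mg/phosphate carrier that also binds Ca2+, had 447 ± 8.63 and 513 ± 26.4 CPM (log2 fold change 0.20, edgeR adjusted p = 0.0620, DESeq2 adjusted p = 0.00941). For Pdzd8, a tether between endoplasmic reticulum and mitochondria, the levels were 77.0 ± 4.22 and 66.1 ± 2.86 CPM (log2 fold change -0.22, edgeR adjusted p = 0.0592, DESeq2 adjusted p = 0.0250). The protease gene Yme1l1 had 97.1 ± 4.32 and 80.5 ± 6.97 CPM (log2 fold change -0.27, edgeR adjusted p = 0.0596, DESeq2 adjusted p = 0.0122). With GC offsets from the longest transcript, which has a GC content of 38.0%, the log2 fold change of Yme1l1 was -0.059, and with gene length offsets added it was -0.028. The same GC offsets gave 0.12 for Slc25a23 (edgeR adjusted p = 0.215), -0.15 for Pdzd8 (edgeR adjusted p = 0.172) and -0.43 for Slc25a13 (edgeR adjusted p = 0.108).

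Within the genotypes several of these genes followed the same split of libraries. Wild-type mouse 3 and transgenic mice 2 and 3 had the 3 highest levels of Mcub (5.23 to 6.21 CPM), Micu2 (28.1 to 29.1 CPM) and Slc8b1 (8.59 to 9.0 CPM), and the 3 lowest of Mcu (36.4 to 40.1 CPM). Vdac2 was also lowest (158 to 162 CPM) and Vdac1 highest (422 to 448 CPM) in them, by small margins to the nearest of the other libraries. The same 3 libraries had the highest summed level of 5 astrocyte markers, 1994 to 2109 CPM against 1381 to 1427 CPM in the other 3, and of 5 microglia markers, 260 to 292 CPM against 187 to 203 CPM. The split held for each of these 5 astrocyte and 5 microglia markers, and for 1 of 4 endothelial markers (Pecam1). It also held for the summed level of the 4 endothelial markers, 163 to 198 CPM against 147 to 154 CPM. Of the 10 neuronal markers, named here for their values, these 3 libraries had the highest levels of C1ql2 and the lowest levels of 5, Camk2a, Rbfox3, Calb1, Fibcd1 and Spink8. They were also the 3 smallest, with 37414241 to 38094114 counted fragments against 42154842 to 52497799. The part of tissue composition and of library size in these values was not tested.

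The genes whose profile over the 6 libraries was most like that of Mcu, by the root mean square distance between log2 CPM centred on each gene's mean, were Rnf165 (0.013), Snrpb (0.018) and Cblb (0.022). Among the 9, Letm1 was nearest to Mcu with a distance of 0.076, rank 1154 of 19086 genes, and Smdt1 followed with 0.084. Slc8b1 was farthest, with a distance of 0.28 and rank 13873. A profile over 6 libraries also carries library size and tissue composition, and nothing about shared regulation was drawn from it.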

How the data were processed

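Reads of hippocampal polyA RNA from 6 mice were filtered with Trimmomatic, aligned to mm10 with STAR and counted with featureCounts 1.5.0-p1 by the authors (Ensembl 95, reversely stranded, mapping quality of at least 3). The authors deposited raw counts of fragments per gene, without normalization, with the exon length of each gene in bp, and all 6 columns of counts were used.

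Libraries were grouped by the genotype label. Genes were kept by filterByExpr with a minimum count of 10 and scaled by TMM. For the comparison of genotypes, edgeR 4.0.16 (quasi-likelihood test, no covariates, Benjamini-Hochberg adjustment over all 19087 genes, threshold 0.05) was run in R 4.3.3, and the fits were tested on simulated counts. The study's own test, NOISeq, was not run. CPM, FPKM and ratios were computed here from the counts and deposited lengths. Symbols, transcripts, GC content and sequences came from GENCODE M21 on GRCm38, in which 54723 gene identifiers were found. Overlap with pseudogenes was counted as shared 76-base stretches of annotated transcripts. The 95% intervals are not adjusted for the number of genes.

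Alternatives were other scalings, DESeq2 1.42.0, limma 3.58.1 (voom), other filters, each mouse left out, the replicate number as a block, and loess offsets (span 0.5) for GC content, gene length or both. Offsets from coding transcripts and added pseudogene counts were chosen after seeing the data. The genes and lists were chosen with earlier results of these data known. All 9 genes are named, together with Mcub and Mcur1, the genes nearest to Mcu, and any listed Ca2+ gene with an adjusted p under 0.05. Any further gene was picked with its values in view. Tissues came from separate mice, and the labels do not say what same-numbered mice share. Among the 9 genes, counting error relative to the level is largest for Slc8b1, at 264 to 352 fragments. Some results are not reported here. Protein sequences were not used here.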

Additional observations from a re-analysis of the deposited data

How the results depend on the processing

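Over the 21 alternatives no call was gained among the 9 genes. The number of genes called in all was 1355, and it was 2230 with DESeq2's Wald test, 411 with GC offsets, 778 with gene length offsets, 399 with both, and, chosen after seeing the data, 343 with GC offsets from coding transcripts and 358 from the longest coding sequence. With each mouse left out it was 74 to 1147. Among the 33 other genes 0 were called, 3 with the Wald test (Pdzd8, Slc25a23, Yme1l1), 1 with limma-voom (Slc25a13), 1 with no filter (Yme1l1), and 0 to 1 with each mouse left out (Pdzd8, without wild-type mouse 3).

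With the replicate number as a block (replicate block) 738 genes were called, or 473 with GC offsets as well, and no call changed among the 9 or the 33 genes. After subtraction of the group means, same-numbered mice had correlations of 0.399, -0.357 and 0.388 over 11191 genes, and not every mouse correlated best with its own number, so the numbers were not taken as pairs.

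Some signs turned. Micu3 (-0.18) was 0.078 with GC offsets, 0.078 with the block added, 0.092 with gene length offsets added and 0.099 with GC offsets from coding transcripts, but -0.17 with those from the longest coding sequence. Vdac2 (-0.048) was 0.013 with GC offsets, 0.013 with the block added and 0.015 with gene length added. With each mouse left out Mcu had log2 fold changes of -0.016 to 0.13 and Micu2 of -0.032 to 0.097. In the same way the difference in log2 ratio ran from -0.14 to 0.11 for Micu2 to Mcu, from -0.051 to 0.045 for Letm1 to Mcu and from -0.016 to 0.037 for Vdac3 to Vdac1. The cause was not tested for these. Ratios of raw counts kept their signs and gave the same exact p. The FPKM of all 9 genes moved by more than their SD with the longest coding transcript.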

Other observations

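A list of 9 genes that report on mitochondrial content gives the setting for these transcripts. By the edgeR quasi-likelihood test 1 of them had an adjusted p under 0.05, beside 7.10% of all genes. The other 8 had an adjusted p of 0.05 or more, among them Cs, citrate synthase (248 ± 6.95 CPM in the wild-type mice against 237 ± 17.9 CPM in the transgenic mice), Tomm20, an import receptor of the outer membrane (325 ± 21.2 and 316 ± 2.03 CPM), and Immt, a scaffold of the cristae (119.6 ± 0.301 and 121 ± 4.97 CPM). The summed level of all 9 was 1129 to 1217 CPM in the wild-type mice against 1109 to 1175 CPM in the transgenic mice, and the ranges overlapped. Ppargc1a, a coactivator of genes of mitochondrial biogenesis, fell. It had 60.6, 56.0 and 54.4 CPM in the wild-type mice against 45.1, 46.4 and 47.8 CPM in the transgenic mice, which did not overlap (log2 fold change -0.30, standard error 0.055, edgeR adjusted p = 0.0291). The call was lost under 11 of the 21 alternatives, among them the replicate block (log2 fold change -0.30, edgeR adjusted p = 0.0547) and GC offsets (log2 fold change -0.15, edgeR adjusted p = 0.177). It was also lost without any 1 of wild-type mice 1 and 2 or transgenic mice 2 and 3, where the log2 fold change stayed between -0.30 and -0.25. Its longest transcript has a GC content of 41.7%.

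Of the other Ca2+ handling genes, 5 encode matrix enzymes that respond to Ca2+. By the edgeR quasi-likelihood test the adjusted p was under 0.05 in 0 of these 5, and the unadjusted p in 1, beside 7.10% and 27.8% of all genes. That gene was Idh3a, a subunit of NAD-dependent isocitrate dehydrogenase, with 191 ± 7.05 CPM in the wild-type mice against 178 ± 1.46 CPM in the transgenic mice (log2 fold change -0.11, edgeR adjusted p = 0.166). The subunit Idh3g had 109.7 ± 2.09 and 117 ± 2.90 CPM (log2 fold change 0.095, adjusted p = 0.184). The libraries of the genotypes did not overlap in either gene, as in 34.9% of all genes. Both subunits, like Ppargc1a, Cs, Tomm20 and Immt, were singled out after their values were seen.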
